A study of Danio rerio with 12 samples.

Results

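The adult zebrafish eye is described here from RNA sequencing of 6 eyes of akr7a3+/+ animals, the wild-type genotype of a study of akr7a3. The eyes were chosen by their genotype label alone and are 6 of the 12 eyes in the series, and the 6 akr7a3-/- eyes entered no value. The fish were adults of the Tg(fli1:EGFP) background, in which the fli1 promoter drives a green fluorescent protein in endothelial cells, and EGFP was not analysed here. The labels give no treatment. Age, sex and the hour of sampling are not given in the sources used here, nor is it said whether the eyes came from separate fish, so that the spread between eyes may in part be technical. The eyes carry the label numbers 1, 2, 3, 4, 6 and 7, and a run of 6 values is always in that order.

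The eye joins tissues of very different composition. In the retina, rods serve dim light and cones serve colour and bright light, and both pass the signal through bipolar cells to ganglion cells, with horizontal and amacrine cells shaping it and Mueller glia supporting the layers. The lens is packed with crystallins, the soluble proteins that give it its refractive power, while pigment cells, the cornea, the sclera, vessels with blood and the muscles that move the eye make up the rest. Each tissue was followed with a list of marker genes. In a bulk sample fewer cells of a type and less RNA per cell cannot be told apart, so that every level here is a level of RNA in the whole eye.

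The table gives an FPKM value (fragments per kilobase of gene, scaled to the library total) for each of 25432 genes and each eye, and 985 genes were at 0 in all 6 eyes. Totals ran from 21194609 to 34935342 reads per eye with a median of 27165545. Between 16525 and 17269 genes reached 1 FPKM per eye, and 15349 genes reached it in every eye. As a check for files deposited more than once, the counts of each pair of eyes were compared, and the lowest chi-square per degree of freedom over the 15 pairs was 36.0, a value that covers counting error only. Across genes, the correlation of log2(FPKM + 0.5) between eyes ran from 0.944 to 0.974, with genes not being independent replicates.

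The gene akr7a3, which encodes an aldo-keto reductase, was low in all eyes. Its FPKM values were 1.91, 2.65, 1.51, 1.35, 2.49 and 2.38, from 195 to 447 reads. Eyes 3 and 4 were the lowest and eye 2 the highest, a range of 1.96 times.

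A small number of genes made up much of the measured RNA. The most abundant gene held 3.83% ± 1.11 (SD, n = 6) of the summed FPKM, the top 10 held 19.9% ± 1.57 and the top 100 held 41.2% ± 1.85. Of all genes, 222 together held 50% of the summed mean FPKM and 6211 held 90%. The 30 most abundant genes came from the lens (8 crystallins), mitochondria (8 mitochondrially encoded genes), cones (4) and rods (3), with 1 gene from the cornea and skin epithelium list and 6 in no list. Among the 100 most abundant, crystallins rose to 21, ribosomal protein genes to 14, cone genes to 13 and mitochondrially encoded genes to 13, and 28 were in no list.

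**Figure D1:**
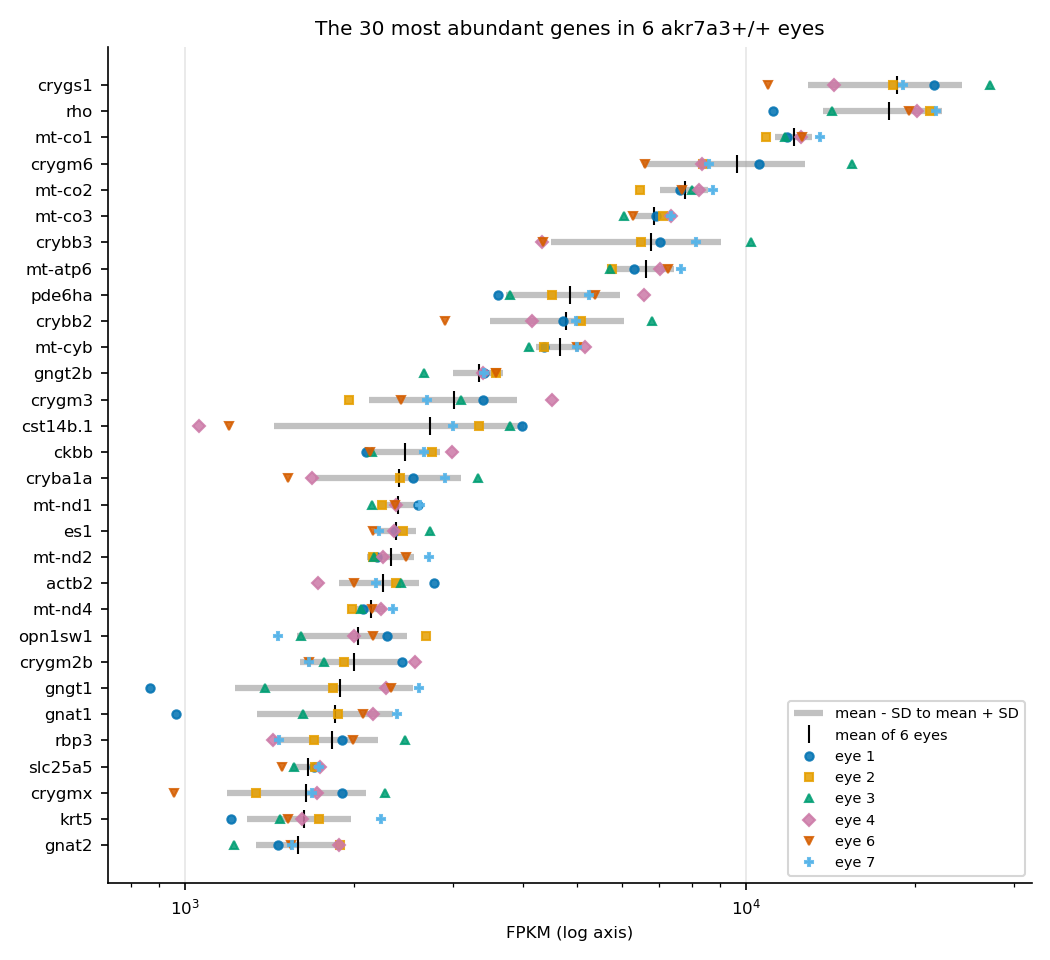
FPKM (log axis) of the 30 genes with the highest mean in the 6 akr7a3+/+ eyes. Each symbol is an eye, the black tick is the mean and the grey bar runs from the mean minus 1 SD to the mean plus 1 SD. The crystallins spread widely, with eye 3 at 27209 and eye 6 at 10939 FPKM for crygs1, while the mitochondrially encoded genes stay close together.

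The leading gene was crygs1, a gamma-S crystallin of the lens. Its FPKM was 21658, 18280.2, 27209, 14326, 10939 and 19050.1. The highest eye, eye 3, was 2.49 times the lowest, eye 6. Next came rho, the opsin of rods. Its FPKM was 11164, 21234, 14229.9, 20175, 19483 and 21782, low in eyes 1 and 3 and close together in the other eyes. The order of these leading genes changed between eyes, since crygs1 was above rho in eyes 1 and 3 and below it in eyes 2, 4, 6 and 7.

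After them came mt-co1, a mitochondrially encoded subunit of cytochrome oxidase, at 12176 ± 907 FPKM (SD, n = 6, as for every later value with ±). The fish-specific gamma-M crystallin crygm6 followed at 9646 ± 3095 FPKM. The other oxidase subunits mt-co2 and mt-co3 had 7789 ± 764 and 6843 ± 541 FPKM, and the ATP synthase subunit mt-atp6 had 6625 ± 805 FPKM. Of the cone genes, pde6ha, which encodes the inhibitory subunit of cone phosphodiesterase, had 4849 ± 1115 FPKM and gngt2b, a gamma subunit of cone transducin, had 3343 ± 345 FPKM. Rod transducin was present through gngt1 at 1885 ± 659 FPKM and gnat1 at 1847 ± 504 FPKM. The cone transducin alpha gene gnat2 stood at 1592 ± 255 FPKM.

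The 6 abundant genes in no list included several of known function. The brain-type creatine kinase gene ckbb had 2466 ± 385 FPKM, the cytoplasmic actin gene actb2 had 2249.5 ± 367 FPKM and slc25a5, an exchanger of ADP and ATP in mitochondria, had 1654 ± 104 FPKM. The gene rbp3, whose product carries retinoids between photoreceptors and pigment epithelium, had 1901, 1695, 2465, 1433, 1991 and 1472 FPKM and did not follow rho, since it was highest in eye 3. The gene es1, known from mitochondria of zebrafish cones, stood at 2381 ± 203 FPKM. The widest spread of the 30 was in cst14b.1, named as a cystatin. Its FPKM was 3994, 3343, 3799, 1060.5, 1198 and 3004, so that eyes 4 and 6 fell far below the other eyes.

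Summed over their members, the lens crystallin list and the photoreceptor lists held similar shares of the FPKM. The lens crystallin list (56 genes) held 12.9% ± 2.78 of the summed FPKM and the photoreceptor lists together (92 genes) held 10.99% ± 1.84. Mitochondrially encoded genes (13) held 10.46% ± 0.782 and cytosolic ribosomal protein genes (84) held 4.95% ± 0.419. These 4 groups were followed by the cornea and skin epithelium list with 1.28% ± 0.202, the lens fibre genes other than crystallins with 0.596% ± 0.194 and the striated muscle list with 0.486% ± 0.1204. The haemoglobin and red cell list held 0.1600% ± 0.0997 and the melanin list 0.0522% ± 0.00719. A share of summed FPKM is per length of gene. Counted in reads, the crystallins held 6.86% and the photoreceptor lists 9.19%, so that the order of crystallins and photoreceptors was turned.

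**Figure D2:**
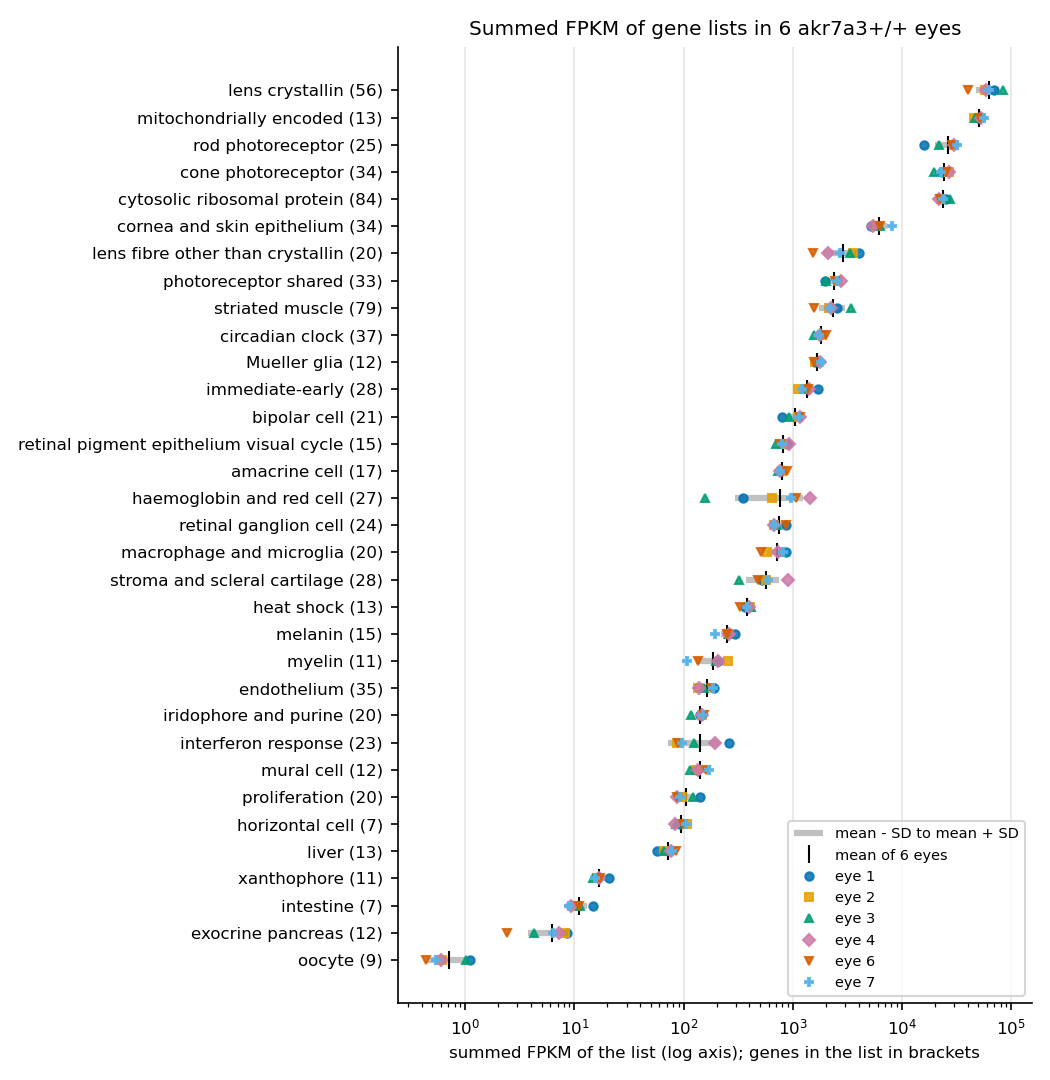
Summed FPKM (log axis) of each gene list in the 6 akr7a3+/+ eyes, with the number of genes in brackets. Symbols are eyes, black ticks are means and grey bars run from the mean minus 1 SD to the mean plus 1 SD. The haemoglobin and red cell list is spread widest among the lists above 100 FPKM, from 157 to 1434, and oocyte and exocrine pancreas genes lie at the bottom.

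Most markers of the retina were found in the labelled tissue. All 25 rod genes, all 34 cone genes found and 20 of 21 bipolar genes reached 1 FPKM on average. Fewer did in other lists, with 5 of 7 horizontal cell, 10 of 12 Mueller glia and 7 of 11 xanthophore genes. The lists made for tissues outside the eye, which were liver, exocrine pancreas, oocyte and intestine, stood low. The 12 exocrine pancreas genes summed to between 2.42 and 8.53 FPKM, led by the elastase genes ela2l and ela2 at 2.12 ± 1.61 and 1.304 ± 0.926 FPKM. The reads of ela2l were 145, 137, 1, 109, 3 and 129, nearly absent in eyes 3 and 6. The 9 oocyte genes summed to between 0.441 and 1.11 FPKM and the 7 intestine genes to between 8.97 and 14.7 FPKM. The liver list reached 71.6 ± 10.6 FPKM through ambp, the precursor of a plasma protease inhibitor, and without it the sum was 5.67 ± 1.56 FPKM. No list was made for nasal or ciliated epithelium. Looked up after the values were seen, or132-2 (ENSDARG00000105762), named as an odorant receptor, had 167 reads in eye 7 and 0 elsewhere. The dynein gene dnah9 had 102 reads in eye 7 and at most 3 elsewhere. These are examples from a longer set of genes with most of their reads in eye 7. A second entry of or132-2 (ENSDARG00000094515) had 162 reads there and at most 4 elsewhere. The genes ak7b and dzip1l had 172 and 181 reads there and at most 4 elsewhere, and adcy3b had 126 and at most 2. Genes with reads in a lone eye were found in other eyes too, such as zgc:198329, with 187 reads in eye 3 and 0 elsewhere. Whether eye 7 held tissue from outside the eye was not tested.

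The spread of a gene between eyes is given as its coefficient of variation (CV), the SD over the mean, with the part due to counting reads taken off. It was worked out for 14956 genes whose mean reached 1 FPKM and 100 reads, called tested genes here. Their median CV was 12.9%, with quartiles of 8.52% and 20.1%, and 539 genes, 3.60% of those tested, reached 50%. Without the read minimum and with the counting part left in, 931 of 16919 genes reached 50%, which is 5.50%. The count for a list is read against the first share. Over all tested genes the highest value lay in eye 1 for 24.0%, in eye 2 for 13.2%, in eye 3 for 13.98%, in eye 4 for 12.8%, in eye 6 for 26.6% and in eye 7 for 9.35%. The lowest lay in eye 1 for 13.8%, in eye 2 for 17.2%, in eye 3 for 24.1%, in eye 4 for 15.6%, in eye 6 for 9.996% and in eye 7 for 19.4%, and the counts of members highest or lowest in an eye are read against these shares.

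Rods varied together. The 25 rod genes summed to 16011, 30048, 21694, 30238, 28919 and 32115 FPKM. Eye 1 was far below the other eyes, with eye 3 next. Of the 25 genes, 21 were lowest in eye 1, where 13.8% of all tested genes were lowest, and 11 were highest in eye 7, where 9.35% were. No rod gene reached a CV of 50%, against 3.60% of all tested genes, and none did with any 1 eye left out. With 25 genes this count is too small to set the rods apart. Their median CV was 23.29%, against 12.9% for all tested genes. The gamma subunit gene gngt1 ran from 864 FPKM in eye 1 to 2608 in eye 7, and the alpha subunit gene gnat1 from 963 to 2381.

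Cone genes moved less as a sum. Their sum was 23261, 27085, 19474, 27105, 25119 and 22679 FPKM, a range of 1.39 times against 2.01 times for the rods. Eyes 2 and 4 were highest, and 14 of the 33 tested genes were lowest in eye 3. The leading gene pde6ha had 3605, 4501, 3787, 6576, 5371 and 5253 FPKM and was lowest in eyes 1 and 3. The ratio of the rod sum to the cone sum was 0.688 in eye 1, 1.42 in eye 7 and between 1.11 and 1.15 in the other eyes. With the opsins alone, rho was 1.205 times the summed cone opsins in eye 1, 3.29 times in eye 7 and between 2.11 and 2.48 times in the other eyes.

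The 8 cone opsin genes split the cone opsin FPKM in a steady way. Red opsins made up 28.3% ± 1.298 of it, green opsins 28.1% ± 1.51, the ultraviolet opsin opn1sw1 25.002% ± 1.62 and the blue opsin 18.7% ± 1.16. The red and green shares differed by less than their spread. Within the green opsins the copies did not keep step. The copy opn1mw1, named here after its values were seen, had 693, 698, 234, 299, 609 and 40.8 FPKM and a CV of 64.3%, while the sum of the 4 green copies stayed between 1664 and 2656 FPKM. Tandem opsin copies are close in sequence, and the handling of reads that fit several copies is not stated, so that values of single copies are uncertain.

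Genes used by rods and cones alike were led by pdcb, a phosducin that binds transducin, at 395 ± 42.8 FPKM, the retinoschisin gene rs1a at 220.3 ± 39.2 FPKM and the fatty acid elongase gene elovl4b at 218 ± 24.3 FPKM. This list was lowest in eyes 1 and 3, at 1977 and 2003 FPKM, against 2447 to 2757 FPKM in the other eyes. None of its 32 tested genes reached a CV of 50%, and their median CV was 17.6%, against 12.9% for all tested genes.

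The inner retina was steadier than the rods in most lists. Amacrine genes summed to 788 ± 51.3 FPKM, led by gad1b, an enzyme of GABA synthesis, at 151 ± 13.9 FPKM, the GABA transporter gene slc6a1b at 107 ± 12.5 FPKM and the transcription factor gene pax6a at 101 ± 8.62 FPKM. Horizontal cell genes summed to 95.02 ± 9.703 FPKM, of which ompa gave 61.1 ± 9.197 FPKM and the gap junction genes cx52.6 and cx52.9 gave 15.6 ± 1.76 and 8.400 ± 1.51 FPKM. Bipolar genes summed to 799.8, 1109.9, 914, 1157, 1158 and 1135 FPKM. The sum was lowest in eyes 1 and 3, as for the rods, but the members were divided. Of 20 tested genes 6 were lowest in eye 1 and 3 in eye 3, where 13.8% and 24.1% of all tested genes were. In eye 6, 10 of the 20 were highest, where 26.6% of all tested genes were. The leading gene cabp5a, which encodes a calcium-binding protein, had 207 FPKM in eye 1 and 507 FPKM in eye 4, while the G protein gene gnao1b had 122 ± 16.6 FPKM and the transcription factor gene vsx1 had 96.4 ± 17.1 FPKM.

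Ganglion cell genes were led by sncgb, a gamma-synuclein, at 484 ± 55.8 FPKM, followed by sncga at 39.7 ± 8.97 FPKM and the RNA-binding protein gene rbpms2a at 36.2 ± 12.5 FPKM. The list summed to 858, 668, 720.3, 669, 859 and 675 FPKM, with eyes 1 and 6 above the other 4. In eye 6, 15 of the 20 tested genes had their highest value, where 26.6% of all tested genes did. In eye 1, sncgb had 572 FPKM and was the 1 gene of the 20 that was highest there. Mueller glia genes summed to 1675 ± 103 FPKM, and this sum had the narrowest range of all lists, 1.16 times from the lowest eye to the highest. By gene they were less steady, with a median CV of 16.6% against 12.9% for all tested genes. They were led by ptgdsb.1, named for prostaglandin D2 synthase, at 637 ± 99.2 FPKM, the lipid carrier gene apoeb at 460.2 ± 82.8 FPKM and the glutamine synthetase gene glula at 358 ± 59.6 FPKM.

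Genes of the retinal pigment epithelium and the visual cycle, which returns the retinoid of bleached opsin to its light-sensitive form, summed to 809 ± 83.7 FPKM. Their leading member rgrb, a retinal-binding opsin, had 207 ± 31.1 FPKM, and the retinol-binding protein gene rbp4 had 152 ± 23.01 FPKM. The isomerase gene rpe65a had 88.9, 107, 66.2, 158, 90.3 and 96.5 FPKM. It was highest in eye 4 and lowest in eye 3, as was the list.

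The lens separated the eyes more than the inner retina did. Crystallins summed to 69326, 58196, 84502, 58722, 40632 and 62431 FPKM. Eye 3 was 2.08 times eye 6, and the other 4 eyes lay between them. Gamma-S crystallins gave 33.4% ± 2.001 of this sum, the gamma-M group 33.00% ± 4.34, beta crystallins 29.1% ± 2.86, alpha crystallins 3.07% ± 0.444 and gamma-N crystallins 1.44% ± 0.3396. The alpha crystallins, which are small heat shock proteins that keep others in solution, were thus a small part by RNA. The gamma-M share was highest in eye 4, at 39.5%, and lowest in eye 7, at 28.7%.

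The leading crystallins crygs1, crygm6 and crybb3 were all highest in eye 3. For crybb3, a beta crystallin, the FPKM was 7028, 6504, 10218, 4323, 4353 and 8156, low in eyes 4 and 6. The beta crystallin genes crybb2 and cryba1a, at 4772 ± 1278 and 2404 ± 698 FPKM, were highest in eye 3 and lowest in eye 6 as well. Of the 35 crystallin genes tested, 23 were lowest in eye 6, where 9.996% of all tested genes were. The highest value lay in eye 3 for 13 and in eye 4 for 13, against 13.98% and 12.8% of all tested genes. The crystallins highest in eye 4 included crygm3, with 3399, 1963, 3108, 4501, 2423 and 2699 FPKM, and crygm2b, with 2433, 1923, 1769, 2574, 1662 and 1661 FPKM. The gene crygmx, at 1644 ± 455 FPKM, was highest in eye 3. In all, 7 of the 35 reached a CV of 50%, against 3.60% of all tested genes.

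Among crystallins above 100 FPKM the most uneven was crygm1, named here after its values were seen. Its FPKM was 568, 147, 67.3, 745, 89.5 and 44.7, high in eyes 1 and 4 and low in the other 4. The rare copy crygmxl2 had 18.8, 0.204, 3.59, 3.42, 0.8203 and 0.599 FPKM and was highest in eye 1. Of the 56 crystallin genes, 36 reached 1 FPKM on average and 6 were at 0 in every eye. Many gamma-M genes are close copies of each other, so that single copies at low values are uncertain.

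Lens fibre genes other than crystallins summed to 4072, 3567, 3332, 2081, 1545 and 2709 FPKM. They were lowest in eye 6, where 15 of 18 tested genes had their lowest value, and next lowest in eye 4. The leading gene lgsn, which encodes the lens protein lengsin, had 878, 932, 909, 289.8, 315 and 638 FPKM. The beaded filament genes, which give lens fibres their own cytoskeleton, followed. BFSP1 had 1219, 721, 524, 305, 189.9 and 451 FPKM and a CV of 64.6%, and bfsp2 had 477, 415, 455, 287, 190.4 and 329 FPKM. These 3 genes were lowest in eyes 4 and 6, as cst14b.1 was, and eye 3, the highest for crystallins, was not the highest for any of them.

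Pigment genes were a small part of the RNA. Melanin genes summed to 297, 257, 259, 258, 247 and 193 FPKM, with eye 1 highest and eye 7 lowest. Of 11 tested genes, 8 were highest in eye 1, where 24.0% of all tested genes were, and 7 were lowest in eye 7, where 19.4% were. The leading members were tyrp1b, an enzyme of melanin synthesis, at 92.1 ± 10.6 FPKM, pmelb, which forms the fibrils on which melanin is laid down, at 43.9 ± 10.6 FPKM, and dct, a further enzyme of the pathway, at 43.8 ± 10.1 FPKM. None of the 11 reached a CV of 50%, and their median CV was 22.9%, against 12.9% for all tested genes.

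Genes of iridophores, the reflecting cells that store guanine, and of purine synthesis summed to 141, 147, 116, 148, 154 and 149 FPKM. Eye 3 stood below the other eyes. Among them pnp5a, a purine nucleoside phosphorylase, ran from 9.59 FPKM in eye 2 to 36.2 FPKM in eye 6, while defbl1 had 19.6 ± 5.81 FPKM and the apolipoprotein D gene apoda.1 had 15.7 ± 4.49 FPKM. Xanthophore genes were lower, at 16.8 ± 2.15 FPKM over 11 genes. The receptor gene csf1ra led them at 4.08 ± 0.8504 FPKM, with gch2 and pts of pteridine synthesis at 3.44 ± 1.25 and 1.899 ± 0.294 FPKM.

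Striated muscle genes were present in every eye. They summed to 2548, 2142, 3440.1, 2258, 1569 and 2174 FPKM. As with the crystallins, eye 3 was highest and eye 6 lowest, and 38 of the 63 tested genes were highest in eye 3 and 38 were lowest in eye 6. Over all tested genes the shares were 13.98% and 9.996%. The leading members were the actin gene actc1b, with 315, 272, 378, 260.3, 165 and 213 FPKM, the fast myosin light chain gene mylpfa, with 251, 268, 339, 239.5, 182 and 281 FPKM, and mb, the oxygen store myoglobin, with 269, 238, 462, 203, 167 and 138 FPKM. In the list 9 of 63 genes, 14.3%, reached a CV of 50%, against 3.60% of all tested genes. With 1 eye left out the count ran from 6, without eye 3, to 11, without eye 1 or eye 4.

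Some muscle genes were carried by a lone eye. The fast troponin I gene tnni2a.1 had 23.9 FPKM in eye 1 and at most 0.795 FPKM in the others. The myosin heavy chain gene myhb had 25.2 FPKM in eye 1 and at most 1.49 FPKM elsewhere. The genes tnni2a.1 and myhb did not follow the muscle list, which was highest in eye 3. The parvalbumin gene pvalb5, whose product binds calcium, is in no list and is not taken as a muscle gene here. It had 42.1 FPKM in eye 7, from 2385 reads, and at most 0.311 FPKM in the others.

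Blood separated the eyes most. The haemoglobin and red cell list summed to 349, 647, 157, 1434, 1075 and 954 FPKM, a range of 9.13 times from eye 3 to eye 4. The beta-globin gene hbba1 is listed under 2 identifiers. ENSDARG00000089087 had 143, 310.2, 54.96, 783, 546 and 494 FPKM, and ENSDARG00000097238 had 43.7, 137, 2.37, 243, 206 and 187 FPKM. The alpha-globin gene hbaa1 had 119, 147, 70.302, 328, 246 and 208 FPKM. All were lowest in eye 3 and highest in eye 4.

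A further gene, si:ch211-5k11.8, was found after the values were seen, and the RefSeq table for the assembly GRCz12tu gives it the synonym hbaa1.2. It had 244, 595, 46.1, 1289, 725 and 815 FPKM, and its mean was above that of each globin of the list. With it the list came to 0.289% of the summed FPKM. Red cell genes that are not globins summed to 38.5, 48.6, 23.37, 71.7, 67.4 and 55.9 FPKM, which put the eyes in the same order as the whole list. Among them was the haem synthesis gene alas2, named after its values were seen, with 5.93, 13.2, 2.97, 19.4, 11.4 and 10.3 FPKM. Of 11 tested genes of the list 10 were lowest in eye 3, where 24.1% of all tested genes were. In eye 4, 7 of the 11 were highest, where 12.8% of all tested genes were. A CV of 50% was reached by 6 of 11, or 54.5%, against 3.60% of all tested genes, but by 1 without eye 3 and by 4 without eye 4.

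**Figure D3:**
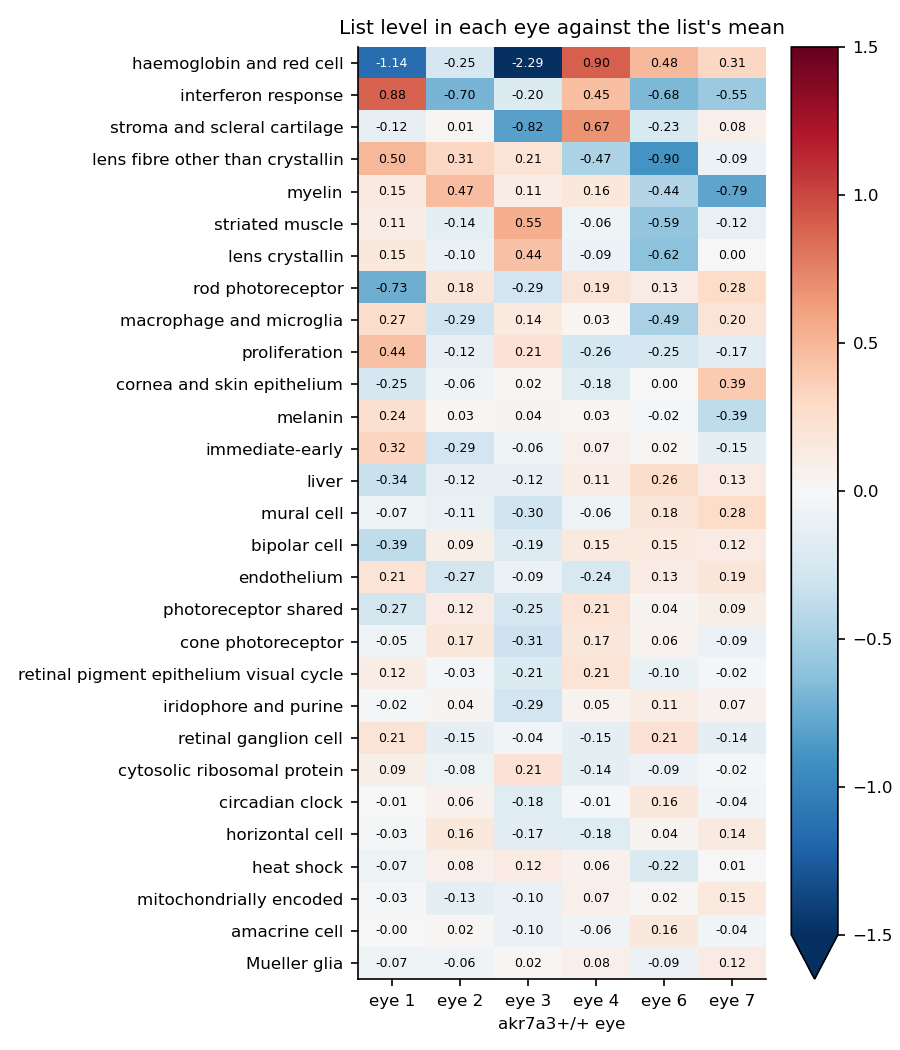
Level of each list in each akr7a3+/+ eye as log2 of its summed FPKM over the mean of the 6 eyes, ordered by the range between eyes, for lists with a mean of at least 50 FPKM. Red is above and blue below the list's mean. Haemoglobin and red cell genes are lowest in eye 3 and highest in eye 4, and interferon response genes are highest in eye 1. The sum of the Mueller glia list, at the bottom, hardly differs between eyes.

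The connective tissue of the eye had the same extremes as blood. Stroma and scleral cartilage genes summed to 518, 567, 319, 896, 481 and 595 FPKM, again lowest in eye 3 and highest in eye 4. Of 20 tested genes 16 were lowest in eye 3, where 24.1% of all tested genes were, and 13 were highest in eye 4, where 12.8% were. The collagen gene col1a1b had 52.5, 89.8, 19.97, 179, 70.17 and 104 FPKM. The proteoglycan genes dcn and kera, the latter known from the cornea, held steadier at 109 ± 19.3 and 86.6 ± 16.3 FPKM. A CV of 50% was reached by 5 of 20 genes, against 3.60% of all tested genes, and by 3 without eye 3 and 2 without eye 4.

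Cornea and skin epithelium genes summed to 5212, 5955, 6279, 5463, 6229 and 8119 FPKM. In eye 7 the sum stood above the rest. The keratin genes krt5 and krt91 were highest there, at 2235 and 1809.6 FPKM, and lowest in eye 1, at 1206 and 804 FPKM, while icn, an S100-type calcium-binding protein gene, was highest in eye 3 at 1417 FPKM. Of the 26 tested genes 10 were highest in eye 3 and 9 in eye 7, where 13.98% and 9.35% of all tested genes were. A CV of 50% was reached by 6 of 26 genes, 23.1%, against 3.60% of all tested genes.

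Vessel genes were low. The 35 endothelial genes summed to 163 ± 23.96 FPKM, with the lipid transporter gene mfsd2ab at 15.3 ± 6.46 FPKM, the adhesion gene esama at 13.5 ± 1.17 FPKM and the VE-cadherin gene cdh5 at 11.22 ± 1.77 FPKM. Mural cell genes summed to 140.2 ± 20.6 FPKM, led by rgs5a, a marker of pericytes, at 65.7 ± 15.9 FPKM, with the smooth muscle genes acta2 and tagln at 21.2 ± 3.39 and 12.7 ± 2.67 FPKM. The endothelial list was high in eyes 1, 6 and 7, and not in eye 4, in which blood genes were highest.

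Macrophage and microglia genes summed to 861, 583, 788, 729, 508 and 818 FPKM. Most of this came from the genes of the invariant chain of antigen presentation, cd74a at 401 ± 78.7 FPKM and cd74b at 217 ± 53.8 FPKM. Without that pair the list summed to 129, 100.2, 81.8, 107, 70.22 and 92.7 FPKM, highest in eye 1, and 10 of the 16 tested genes of the list were highest there, against 24.0% of all tested genes. The perforin-like gene mpeg1.2 had 17.7, 8.29, 18.2, 7.71, 10.2 and 4.75 FPKM, high in eyes 1 and 3.

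Myelin genes summed to 204, 255, 199.5, 206, 136 and 107 FPKM, low in eyes 6 and 7. The myelin basic protein gene mbpa had 93.6, 132, 87.03, 108, 61.6 and 35.4 FPKM, the proteolipid protein gene plp1b had 28.2 ± 7.98 FPKM and the myelin protein zero gene mpz had 22.97 ± 7.31 FPKM.

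Genes that report the state of the tissue differed in how far they spread. Interferon response genes summed to 261, 87.7, 124, 194, 88.9 and 96.8 FPKM, highest in eye 1 and next in eye 4. The most abundant members, all transcription factor genes, were stat1a at 30.7 ± 4.02 FPKM, irf1b at 18.2 ± 5.91 FPKM and stat2 at 12.7 ± 3.86 FPKM. Of the 30 most variable genes, mxb and ifit8 belong to this list. The GTPase gene mxb had 14.4, 0.158, 0.865, 5.28, 0.131 and 0.0857 FPKM, and ifit8 had 9.42 FPKM in eye 1 and at most 1.29 FPKM elsewhere. The transcription factor gene irf7, named after its values were seen, had 39.2, 3.39, 6.22, 11.4, 4.197 and 3.66 FPKM. In this list 11 of 19 genes, 57.9%, reached a CV of 50%, against 3.60% of all tested genes, and 10 did so without eye 1. Of the 19, 13 were highest in eye 1 and 6 in eye 4, where 24.0% and 12.8% of all tested genes were.

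Proliferation genes were low, at 104 ± 22.00 FPKM in sum, and eye 1 was highest with 141 FPKM. Of 11 tested genes 8 were highest in eye 1, where 24.0% of all tested genes were. A CV of 50% was reached by 6 of the 11, or 54.5%, against 3.60% of all tested genes. The replication clamp gene pcna had 48.4, 35.1, 38.2, 31.8, 31.8 and 34.2 FPKM, and the helicase gene mcm7 had 12.1, 6.13, 13.2, 5.12, 6.295 and 3.98 FPKM. Eyes 1 and 3 were the highest for both. The ubiquitin-conjugating enzyme gene ube2c is listed under 2 identifiers, and its abundant entry had 32.1 ± 4.302 FPKM with eye 1 the lowest.

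Immediate-early genes, which cells switch on quickly after stimulation, summed to 1352 ± 201 FPKM, from 1108 in eye 2 to 1694 in eye 1. Their leading members were junbb at 165 ± 28.99 FPKM, egr1 at 143 ± 29.3 FPKM and btg2 at 121 ± 30.6 FPKM, and 15 of 26 tested genes were lowest in eye 2, where 17.2% of all tested genes were. Circadian clock genes summed to 1794 ± 141 FPKM. None of 34 reached a CV of 50%, against 3.60% of all tested genes, and 1 did when eye 1, 3, 4, 6 or 7 was left out. Their median CV was 16.6%, against 12.9% for all tested genes. They were led by the repressor genes bhlhe40 at 455 ± 46.2 FPKM, cry1ba at 196 ± 20.5 FPKM and nr1d2b at 129 ± 24.02 FPKM. Heat shock genes summed to 382 ± 31.8 FPKM, with the chaperone genes hsp90aa1.2 at 197 ± 27.8 FPKM, hspa5 at 57.99 ± 12.3 FPKM and hspb1 at 26.6 ± 5.41 FPKM.

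Housekeeping lists were among the steadier ones. Mitochondrially encoded genes summed to between 46078 FPKM in eye 2 and 55976 FPKM in eye 7, 10 of 13 genes were highest in eye 7, where 9.35% of all tested genes were, and none reached a CV of 50%. The respiratory chain genes mt-cyb, mt-nd1, mt-nd2 and mt-nd4 had 4659 ± 441, 2394 ± 186, 2331 ± 225 and 2141 ± 132 FPKM. Ribosomal protein genes summed to between 21704 FPKM in eye 4 and 27773 FPKM in eye 3. Of 83 tested, 58 were highest in eye 3, where 13.98% of all tested genes were. A CV of 50% was reached by 1 of the 83 ribosomal protein genes, against 3.60% of all tested genes. Their leading members were rplp0 at 896 ± 107 FPKM, rps2 at 826 ± 91.7 FPKM and rps14 at 747 ± 83.6 FPKM.

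Whether the main tissue lists moved together across eyes was tested over 10 pairs of lists on log2 of their summed FPKM, with a 2-sided exact permutation test over the 720 pairings of the 6 eyes. Crystallin and striated muscle levels had the closest relation, with Pearson's r = 0.98 (exact permutation p = 0.00556, adjusted over the 10 pairs p = 0.0556) and Spearman's rho = 0.94 (exact permutation p = 0.0167, adjusted p = 0.167). Both lists were highest in eye 3 and lowest in eye 6, and without the 2 eyes farthest from the median for crystallins r was 0.87 over the 4 that were left. No pair passed the threshold of 0.05 after adjustment. Muscle and haemoglobin levels had r = -0.82 (exact permutation p = 0.0444, adjusted p = 0.167) and rho = -0.60 (exact permutation p = 0.242, adjusted p = 0.372), and r was -0.66 without the 2 eyes farthest from the median for muscle.

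Photoreceptor levels fell into separate clusters, with eyes 1 and 3 at 41249 and 43170.4 FPKM and the other 4 between 56485 and 60099 FPKM. The 4 pairs with photoreceptors were tested and counted in the adjustment, with adjusted p-values of Pearson's r in the exact permutation test from 0.167 to 0.504. Their r is not given, since the eyes fall into separate clusters, and the relation was not tested within a cluster, each of which holds under 6 eyes. Crystallin and haemoglobin levels had r = -0.77 (exact permutation p = 0.0722, adjusted p = 0.181) and rho = -0.71 (exact permutation p = 0.136, adjusted p = 0.340), with r = -0.75 without the 2 farthest eyes. Crystallin and melanin levels had r = 0.17 (exact permutation p = 0.696, adjusted p = 0.696) and rho = 0.60 (exact permutation p = 0.242, adjusted p = 0.372), with r = 0.32 without the 2 farthest eyes. Melanin and muscle levels had r = 0.27 (exact permutation p = 0.538, adjusted p = 0.597) and rho = 0.77 (exact permutation p = 0.103, adjusted p = 0.340), with r = 0.86 without them. Melanin and haemoglobin levels had r = -0.41 (exact permutation p = 0.408, adjusted p = 0.510) and rho = -0.54 (exact permutation p = 0.297, adjusted p = 0.372), with r = -0.48 without them. FPKM values are relative to the total of each eye, so that the lists are not independent of each other.

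Genes of middle level varied least between eyes. The median CV was 14.3% for the 8814 tested genes from 1 to 10 FPKM, 11.15% for the 5607 from 10 to 100 FPKM, 13.3% for the 487 from 100 to 1000 FPKM and 17.96% for the 48 at 1000 FPKM or more. None of those 48 reached a CV of 50%. Among genes of at least 100 FPKM the steadiest, looked up after the values were seen, was itm2ba, with 401, 382, 389, 396, 417 and 404 FPKM. The glycolytic gene aldocb, with 425, 428, 422, 457, 447 and 419.8 FPKM, and the synaptic gene snap25b, with 497, 523, 522, 523, 570.4 and 540.3 FPKM, were also among the 10 steadiest.

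**Figure D4:**
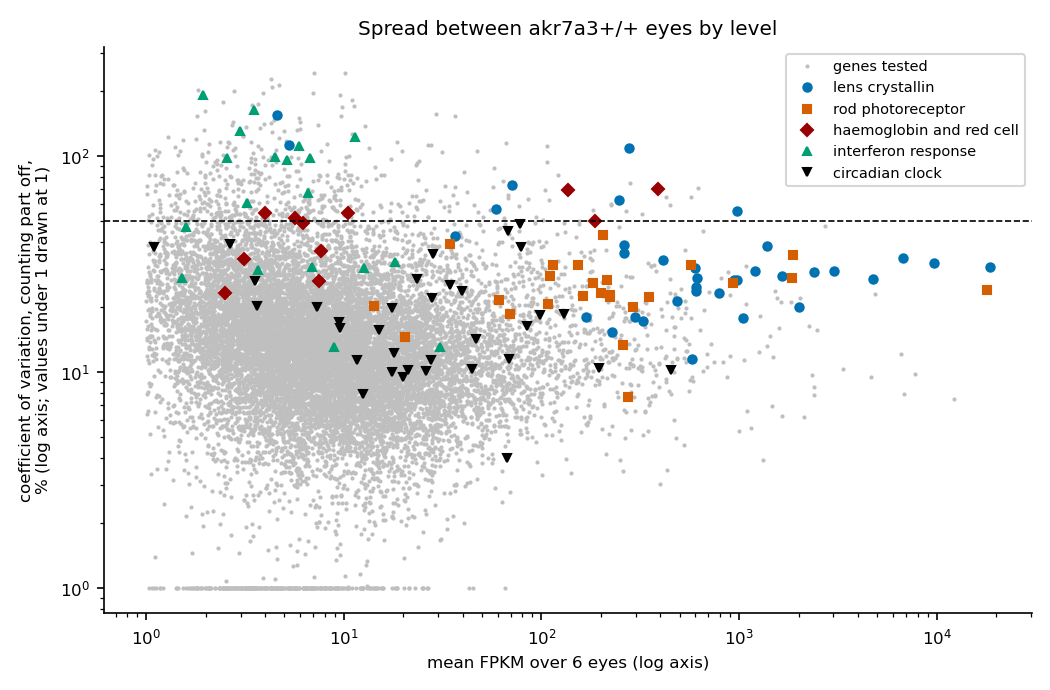
Coefficient of variation between the 6 akr7a3+/+ eyes (log axis, counting part taken off) against mean FPKM (log axis) for the 14956 genes tested, with 5 lists marked and a dashed line at 50%. Interferon response and haemoglobin genes lie high, while clock and rod genes stay below the line. The medians of the clock and rod lists, 16.6% and 23.29%, are still above the 12.9% of all tested genes. Of all tested genes, 3.60% reach the line.

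Genes that varied widely most often peaked in eye 1. Of the 539 genes with a CV of 50%, 38.0% were highest in eye 1, 17.6% in eye 3, 14.5% in eye 4, 12.99% in eye 7, 10.2% in eye 6 and 6.68% in eye 2. Over all tested genes, 24.0% were highest in eye 1 and 26.6% in eye 6. Of the 539, 474 are in no list. With 1 eye left out the number of such genes lay between 511, without eye 1, and 581, without eye 7. A gene nearly absent from 1 eye and even in the rest stays just under a CV of 50%. An example looked up after the values were seen is zgc:171497, with 1 read in eye 6, 415 to 761 elsewhere and a CV of 49.1%. The measure thus favours genes high in few eyes over genes lost in 1 eye.

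Of the 30 genes with the largest CV, under the same read minimum, 13 were highest in eye 1, 9 in eye 3, 5 in eye 7, 2 in eye 4 and 1 in eye 2. Genes of the immune system were among those of eye 1. The immunoglobulin heavy chain segment ighv1-4 (ENSDARG00000096355) had 22.7 FPKM there and at most 1.22 FPKM elsewhere, and the DNA sensor gene cgas had 11.3 FPKM there and at most 1.19 FPKM elsewhere. The lipoxygenase gene alox5b.2 had 14.2 FPKM there and at most 0.8599 FPKM elsewhere. An entry named MFAP4 (1 of many), ENSDARG00000038681, 1 of several with that name, had 19.4 FPKM there and at most 1.53 FPKM elsewhere. The genes si:dkey-30j10.5, si:dkey-85k7.12, ENSDARG00000025783 and CABZ01021532.1, for which the table gives no functional name, reached 15.43, 8.38, 39.9 and 49.04 FPKM in eye 1.

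**Figure D5:**
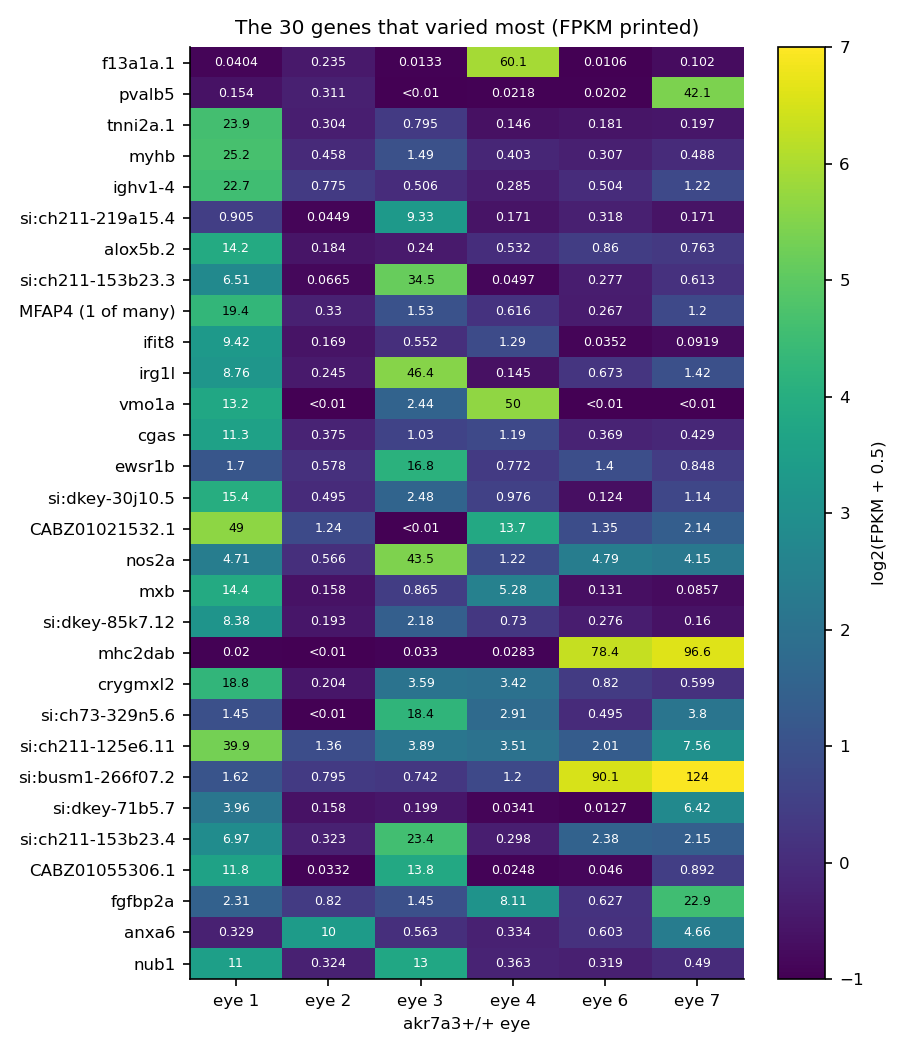
FPKM of the 30 genes with the largest coefficient of variation in each of the 6 akr7a3+/+ eyes, with the value printed and log2(FPKM + 0.5) as colour. Genes are ordered by that coefficient. Eye 1 holds the highest value of 13 genes and eye 3 of 9, and mhc2dab is high in eyes 6 and 7 alone, at 78.4 and 96.6 FPKM.

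Of the genes highest in eye 3, nos2a and irg1l are known from inflammation. The inducible nitric oxide synthase gene nos2a had 4.71, 0.566, 43.5, 1.22, 4.79 and 4.15 FPKM. The gene irg1l, named as a relative of the mammalian enzyme that makes itaconate, had 8.76, 0.245, 46.4, 0.145, 0.673 and 1.42 FPKM. Both peaked in eye 3, and irg1l was second in eye 1. The genes si:ch211-153b23.3 and si:ch211-153b23.4 had the same pair of highest eyes as irg1l, with 34.5 and 23.38 FPKM in eye 3 and 6.51 and 6.97 FPKM in eye 1. The RNA-binding protein gene ewsr1b is listed under 2 identifiers, of which ENSDARG00000117011 had 16.8 FPKM in eye 3 and at most 1.703 FPKM elsewhere. Also highest in eye 3 were si:ch211-219a15.4 at 9.33 FPKM, si:ch73-329n5.6 at 18.4 FPKM, CABZ01055306.1 at 13.8 FPKM and nub1 at 12.996 FPKM. The last pair were also high in eye 1, at 11.82 and 11.04 FPKM, and under 1 FPKM in the other 4 eyes.

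Eyes 4, 7 and 2 held others of these genes. The clotting factor gene f13a1a.1, the most variable of all, had 60.1 FPKM in eye 4, from 5261 reads, and at most 0.235 FPKM elsewhere. The gene vmo1a had 13.2, 0, 2.44, 50.02, 0 and 0 FPKM. Its high eyes, 4 and 1, were those of crygm1. The gene fgfbp2a, named for a growth factor binding protein, had 2.31, 0.8200, 1.45, 8.11, 0.627 and 22.9 FPKM, and si:dkey-71b5.7 had 6.42 FPKM in eye 7 and 3.96 FPKM in eye 1. The annexin gene anxa6 had 0.329, 10.05, 0.563, 0.334, 0.603 and 4.66 FPKM, high in eyes 2 and 7.

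Several genes had many reads in some eyes and nearly none in others. The major histocompatibility class II gene mhc2dab had 1, 0, 1, 1, 2980 and 4216 reads, and si:busm1-266f07.2 had 1.62, 0.795, 0.742, 1.196, 90.1 and 124 FPKM with the same split. At least 100 reads in 1 eye with at most 3 reads in another was taken as a pattern after the values were seen, and 211 genes had it. In 104 of them a lone eye was at 3 reads or fewer, and in 61 at least 3 eyes were. In 44 of them every eye fell into either class.

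Examples of this pattern, chosen after their values were seen, included abundant genes. The antizyme gene oaz1a, a regulator of polyamine synthesis, had 3, 14174, 3797, 10439, 10781 and 12398 reads. Its reads were nearly absent in eye 1 and present in the other 5. The class I histocompatibility gene mhc1uba had 19893, 15056, 1, 9480, 2 and 11171 reads, and dap1b, under the identifier ENSDARG00000109678 and not the other of that name, had 2403, 1729, 2, 1078, 2583 and 2908 reads. The gene aste1a alternated, with 2666, 2, 1452, 3, 1944 and 5 reads. Histocompatibility genes have close copies that differ between fish. The part of the assignment of reads to genes or copies in these values, those of oaz1a, dap1b and aste1a included, was not tested.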

How the data were processed

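Libraries of polyadenylated RNA were strand-specific. HISAT2 served for mapping to GRCz11 and featureCounts 2.0.3 for counting per gene, and the authors deposited FPKM values. How strand and multi-mapping reads were treated is not given in the sources used here. The 6 columns of akr7a3-/- eyes were not used.

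Reads, gene lengths and totals were worked out from the steps of the low FPKM values. All 25432 genes gave whole reads in all 6 eyes within a tolerance of 0.0001 reads plus 2e-09 of the count, and the listed genes held 99.3% to 99.5% of the totals. Because no groups were compared, no count model was fitted. Correlations of lists were tested with an exact permutation test, with Benjamini-Hochberg adjustment over 10 pairs. A chi-square of counts between pairs of eyes served to look for repeated files, and Dixon's test to mark an eye that stood apart. Scripts were tested on simulated data and run in Python 3.11.15 with numpy 2.4.6, pandas 2.3.3 and scipy 1.17.1.

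The genes named were akr7a3, the 30 with the highest mean FPKM, the 30 with the largest coefficient of variation, leading members of each list taken from its top 3, and those marked as chosen after their values were seen. The members and lists were chosen with earlier results of these data known. Alternatives were shares of reads, other denominators, detection limits, filters and scalings, a log2 measure of spread, other scales for the correlations and leaving out each eye.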

Additional observations from a re-analysis of the deposited data

Results flagged for a closer look

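In these results a single eye lay so far from the nearest of the other 5 that the gap, as a share of the whole range, passed the critical value of Dixon's test for 6 values. Chance flags about 1 in 20 groups of values. The pattern was found for 1005 of the 14956 tested genes (6.72%), most often with eye 1 (329 genes), eye 3 (211) or eye 6 (206) as the eye apart. The genes named for their large spread were chosen by the same values, so that their number says nothing more.

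Of the lists, the iridophore and purine list stood low in eye 3 at 116 FPKM, the xanthophore list high in eye 1 at 20.9 FPKM and the cornea and skin epithelium list high in eye 7 at 8119 FPKM.

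Among genes named for their abundance or as leading members of a list, gngt2b stood low in eye 3 at 2661 FPKM. In the same way btg2 stood low in eye 2 at 62.7 FPKM and acta2 low in eye 4 at 14.8 FPKM.

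Eye 1 stood high for CABZ01021532.1 (49.0 FPKM), ENSDARG00000025783 (39.9 FPKM), irf7 (39.2 FPKM), myhb (25.2 FPKM), tnni2a.1 (23.9 FPKM), ighv1-4 (22.7 FPKM), MFAP4 (1 of many) (19.4 FPKM), crygmxl2 (18.8 FPKM), si:dkey-30j10.5 (15.43 FPKM), mxb (14.4 FPKM), alox5b.2 (14.2 FPKM), cgas (11.3 FPKM), ifit8 (9.42 FPKM) and si:dkey-85k7.12 (8.38 FPKM). Eye 3 stood high for irg1l (46.4 FPKM), nos2a (43.5 FPKM), si:ch211-153b23.3 (34.5 FPKM), si:ch211-153b23.4 (23.38 FPKM), si:ch73-329n5.6 (18.4 FPKM), ewsr1b (16.8 FPKM) and si:ch211-219a15.4 (9.33 FPKM). Eye 4 stood high for f13a1a.1 (60.1 FPKM) and vmo1a (50.02 FPKM), and eye 7 for pvalb5 (42.1 FPKM) and fgfbp2a (22.9 FPKM).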

How the results depend on the processing

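Counted in reads and not per length, the share of the lens crystallin list was 6.86% (12.9% of summed FPKM), that of the striated muscle list 0.640% (0.486%) and that of the 10 most abundant genes 10.8% (19.9%), and without mitochondrially encoded genes the last was 17.1%. With si:ch211-5k11.8 added, an alternative chosen after seeing the data, the haemoglobin and red cell list held 0.289% (0.160%). The count of genes with a coefficient of variation of 50% was 931 at a mean of 1 FPKM, 5822 with no filter on low values, 259 at a mean of 5 FPKM and 539 with the counting part taken off and at least 100 reads, the last chosen after seeing the data. Of the 30 most variable genes, 30 were kept under median-of-ratios scaling and 9 when ranked by the SD of log2(FPKM + 0.5). On a linear scale 1 of the 10 correlations passed the threshold, that of crystallin and muscle (r = 0.98), against 0 on the log2 scale. On the mean of log2(FPKM + 0.5) over members that r was 0.68.

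With 1 eye left out, the crystallin share ran from 12.004% to 13.7%, the photoreceptor share from 10.7% to 11.5% and the melanin share from 0.0503% to 0.0548%. The muscle share ran from 0.444% to 0.516%, the haemoglobin share from 0.133% to 0.186% and the top 10 share from 19.5% to 20.2%. The genes detected ran from 15398 to 15507. With the counting part left in and no read minimum, the genes with a coefficient of variation of 50% ran from 818 to 1003. With the counting part taken off and the read minimum, they ran from 511 to 581. On the latter measure the genes at 50% ran from 1 to 7 in the haemoglobin list, the lowest without eye 3. In the stroma list they ran from 2 to 7, where 3 were left without eye 3 and 2 without eye 4. The correlations were not run with each eye left out in turn, and the values without the 2 farthest eyes stand beside them. No paired analysis was possible because a single genotype was analysed and its eyes have no partner. Depth limits the genes near 1 FPKM, and single members of families of close copies are uncertain at any depth.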
